A study of Rattus norvegicus with 13 samples.

Results

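Immediate early genes are transcribed within minutes of a stimulus from factors already present in the cell, and 10 of them were followed in the left ventricle of pregnant rats: the transcription factors Fos, Fosb, Jun, Junb, Egr1, Egr2, Atf3, Nr4a1 and Nr4a3, and Arc. They were taken by gene symbol, as every probe set annotated to 1 of these symbols alone, which gave 16 probe sets for 10 genes out of 31042 probe sets and 14217 gene symbols. A probe set is a group of short probes that reads 1 transcript on the Affymetrix rat genome array. Its deposited value is a MAS5 signal, a linear intensity, given here as log2. The 13 arrays came from female Sprague-Dawley rats in 3 groups. In the L-NAME group (n = 4) the rats drank L-NAME, an inhibitor of nitric oxide (NO) synthases, at 1 g/L. In the Met-fed group (n = 4) they drank L-methionine at 9 g/L, which raises plasma homocysteine, and in the control group (n = 5) they drank water with neither. By the sample labels all were pregnant, treatment ran from day 1 to day 20, and hearts were taken on day 20 or 21, while the methods of the study describe repeated pregnancies. The labels do not state that each array came from a different rat, so p-values measure the spread between these samples.

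Fos, Fosb, Jun, Junb and Atf3 encode proteins with a basic leucine zipper. Fos proteins bind DNA as dimers with Jun proteins, as the factor AP-1. Egr1 and Egr2 encode zinc finger factors, and Nr4a1 and Nr4a3 encode orphan nuclear receptors that act without a known hormone. Many of these genes are switched on through serum response factor, which binds the CArG box, and through CREB, which binds the cAMP response element (CRE). In cardiomyocytes they are known to be induced quickly by stretch, by adrenergic and angiotensin signals and by ischemia. Arc is known mainly from neurons, where its protein acts at synapses.

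The L-NAME arrays stood apart from the others before any member was considered. Their median signal was 34.2 to 36.9, against 25.8 to 29.2 on Met-fed and 25.7 to 27.2 on control arrays, although the trimmed mean was 150 on all. The log2 ratio of 3′ to 5′ beta-actin signal, a measure of RNA and labeling quality, was 2.32 to 2.70 in L-NAME, 3.32 to 3.71 in Met-fed and 3.31 to 3.67 in control hearts. The median log2 change over all probe sets was 0.22 for L-NAME against control, 0.00392 for Met-fed against control and 0.25 for L-NAME against Met-fed, and after each array was centred on its median it was -0.21, -0.05 and -0.11. Ventricular cardiomyocyte markers averaged a log2 signal of 11.1 to 11.3 in L-NAME, 11.5 to 11.9 in Met-fed and 11.7 to 11.8 in control hearts, and 8 of 9 were lower in L-NAME than in control hearts, as were 4 of 5 endothelial markers, against 17% of all probe sets. Leukocyte markers averaged 5.95 to 6.88 in L-NAME, 5.76 to 6.51 in Met-fed and 5.32 to 6.66 in control hearts. In bulk tissue, fewer cells of a type and less RNA per cell cannot be told apart. The part of these shifts in the results on the immediate early genes was not tested beyond the fits given below.

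In L-NAME compared with control hearts, 7 of the 10 genes were higher by at least 1 probe set and none was lower, apart from Arc with quantile normalization. The higher genes were Jun, Junb, Nr4a1, Nr4a3, Fosb, Egr1 and Fos, while Atf3, Egr2 and Arc did not pass the test. This made 10 of 16 probe sets, at an adjusted p under 0.05 from limma over all 31042 probe sets, and all 10 changed upward. In the same comparison 45.7% of all probe sets passed, 28.7% higher and 17% lower. These shares count probe sets and are set beside the 10 of 16. The share of all genes that were higher by at least 1 probe set was not computed. The median log2 change of the 16 probe sets was 0.70, against 0.22 over all probe sets. Over all probe sets of at least median signal it was 0.067, so the general shift was larger among dim ones. The L-NAME and control values did not overlap in 6 of the 16, all higher in L-NAME, while 25.8% of all probe sets were higher without overlap. With array median centring 5 of the 16 passed, all higher, from Jun, Nr4a1 and Nr4a3. That is a smaller share than the 45.7% of all probe sets that passed in either direction. It is a larger share than the 16% of all that were higher in this fit, where 29.7% were lower. Without L-NAME replicate 1, 7 of the 16 passed, all higher, from Jun, Junb, Nr4a1 and Nr4a3. Of all probe sets 41.9% passed in that fit, and 26% of all were higher. With the mean spike-in signal as a covariate none passed, with 13.3% of all probe sets. With the beta-actin ratio as a covariate none passed either, with 3.29% of all probe sets, and of the genes above the estimates for Egr1, Fos, Fosb and 2 of the 3 Jun probe sets were below 0. The ratio does not overlap between the L-NAME and control arrays. Nor does the mean spike-in log2 signal, at 9.80 to 9.97 on L-NAME and 10.16 to 10.41 on control arrays. So a change with treatment and a change with either of these measures cannot be told apart.

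**Figure D1:**
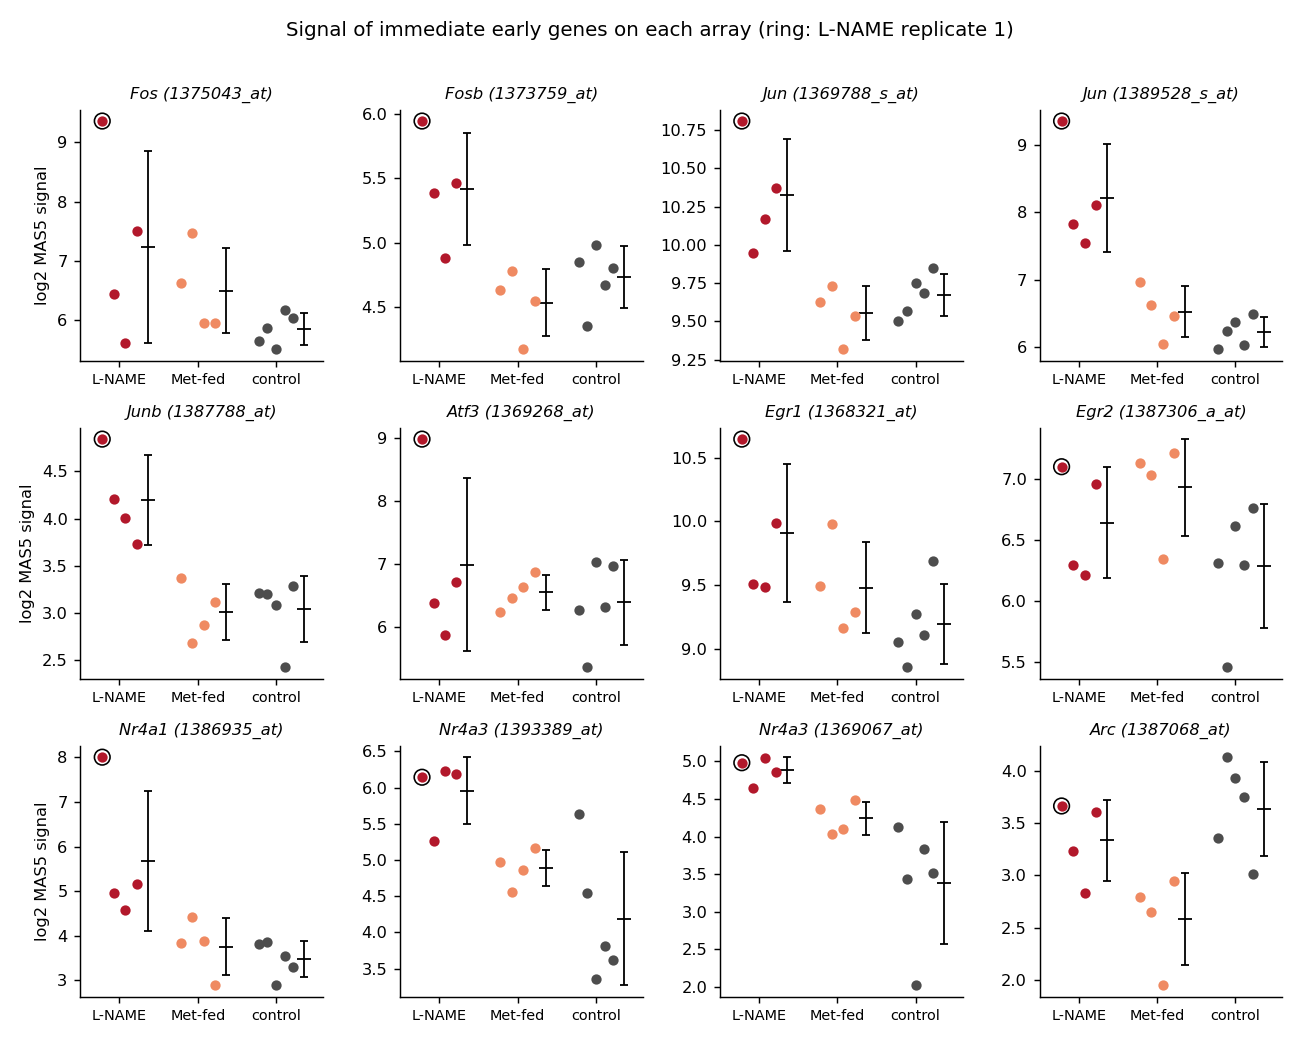
Log2 MAS5 signal (vertical axis, a separate scale per panel) on each array for L-NAME (n = 4), Met-fed (n = 4) and control (n = 5) hearts, for the 10 genes and for a further probe set each of Jun and Nr4a3. Bars beside the points are mean ± SD, and the ring marks L-NAME replicate 1, which was the highest of all 13 arrays for 10 of the 16 probe sets. The share of all probe sets that were highest on that array was not computed.

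Jun (chr5:115009900-115012993, rat build GRCr8) encodes the core partner in AP-1 dimers. Its probe set 1389528_s_at had log2 signals of 9.35, 7.83, 7.55 and 8.11 in L-NAME hearts, 6.97, 6.62, 6.05 and 6.47 in Met-fed hearts, and 5.97, 6.24, 6.38, 6.03 and 6.50 in control hearts. Every L-NAME array was above every other array. The log2 change against control was 1.98 ± 0.28 (SE), or 3.95-fold (limma, adjusted p = 2.39e-05; exact permutation test, 2-sided, p = 0.00794, the smallest 4 against 5 arrays can give). Probe set 1374404_at gave 8.50, 6.96, 6.73 and 7.15 in L-NAME hearts, against 5.10, 5.23, 5.20, 5.39 and 5.45 in control hearts. Its change was 2.06 ± 0.30, or 4.18-fold (limma, adjusted p = 3.15e-05). The third probe set, 1369788_s_at, was also higher on every L-NAME than on every control array, with a smaller step. It read 10.81, 9.95, 10.17 and 10.37 in L-NAME hearts and 9.50, 9.57, 9.75, 9.69 and 9.85 in control hearts, a change of 0.65 ± 0.14 (limma, adjusted p = 0.00099). So the 3 probe sets of Jun shared the direction and differed in size, and with array median centring 1369788_s_at was at 0.23 and did not pass (adjusted p = 0.221). Without L-NAME replicate 1 the changes were 1.6, 1.67 and 0.49, and all 3 passed.

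Junb (chr19:40081126-40082910) encodes a Jun protein that is a weaker activator than Jun on many promoters. Its log2 signals were 4.84, 4.21, 4.00 and 3.73 in L-NAME hearts, 3.37, 2.68, 2.87 and 3.11 in Met-fed hearts, and 3.21, 3.20, 3.09, 2.42 and 3.28 in control hearts. All L-NAME values were above all others, at a signal below the array median. The change against control was 1.16 ± 0.30, or 2.23-fold (limma, adjusted p = 0.00495), and 0.73 with array median centring (adjusted p = 0.0576).

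Fos (chr6:110852188-110855054) encodes the classic partner of Jun. Its brighter probe set, 1375043_at, read 9.36, 6.45, 5.62 and 7.50 in L-NAME hearts, 6.63, 7.48, 5.95 and 5.95 in Met-fed hearts, and 5.65, 5.86, 5.51, 6.17 and 6.04 in control hearts. The L-NAME arrays spanned nearly the whole range of the gene, with replicate 1 far above the rest and replicate 3 among the controls. The change of 1.38 ± 0.53 passed narrowly (limma, adjusted p = 0.0432), while the exact permutation test gave p = 0.0556. Without L-NAME replicate 1 it was 0.67 ± 0.38 and did not pass (adjusted p = 0.173), nor did it pass without L-NAME replicate 4 or without any 1 of the 5 controls. The other Fos probe set, 1371283_at, was above the highest bacterial control probe set on 1 of 13 arrays and differed by -0.62 ± 0.69 (adjusted p = 0.507). Fosb (chr1:88082324-88089506), a Fos relative with a stable splice form that accumulates on repeated stimulation in brain, read 5.95, 5.39, 4.88 and 5.46 in L-NAME hearts, against 4.85, 4.35, 4.98, 4.67 and 4.80 in control hearts. Only L-NAME replicate 3 fell within the control range. The change was 0.69 ± 0.23 (limma, adjusted p = 0.0197), and it did not pass without L-NAME replicate 1 (0.51, adjusted p = 0.0903) or with array median centring (0.26, adjusted p = 0.358).

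Atf3 (chr13:105274103-105331653) encodes a stress-induced factor that often represses. It read 8.98, 6.37, 5.86 and 6.72 in L-NAME hearts, 6.23, 6.45, 6.62 and 6.87 in Met-fed hearts, and 6.27, 5.35, 7.03, 6.32 and 6.97 in control hearts. Apart from L-NAME replicate 1, the L-NAME values lay inside the control range. The difference was 0.60 ± 0.48 (limma, adjusted p = 0.336), with a 95% interval of -0.41 to 1.60, and it was -0.069 without that array.

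Nr4a1 (chr7:134247153-134268044), also called Nur77, had log2 signals of 8.0, 4.97, 4.58 and 5.15 in L-NAME hearts, 3.84, 4.41, 3.87 and 2.89 in Met-fed hearts, and 3.82, 3.85, 2.89, 3.55 and 3.29 in control hearts. All 4 L-NAME arrays were above all others, and replicate 1 was far above the other 3. The mean signal of this probe set was below the median of all probe sets. The change against control was 2.20 ± 0.54, or 4.58-fold (limma, adjusted p = 0.00311; exact permutation test, p = 0.00794). Without replicate 1 it was 1.42 ± 0.35 and passed (adjusted p = 0.00388), and with array median centring it was 1.77 (adjusted p = 0.0123). Nr4a3 (chr5:67157141-67198287), also called NOR-1, was read by 3 probe sets. Probe set 1393389_at gave 6.14, 5.26, 6.22 and 6.19 in L-NAME hearts, 4.98, 4.55, 4.87 and 5.16 in Met-fed hearts, and 5.64, 4.54, 3.35, 3.81 and 3.61 in control hearts. Here L-NAME replicate 1 was no higher than replicates 3 and 4, and control replicate 1 was the one control array above L-NAME replicate 2. The change was 1.76 ± 0.38 (limma, adjusted p = 0.00101). Probe set 1369067_at gave 4.98, 4.65, 5.04 and 4.86 in L-NAME hearts, 4.37, 4.03, 4.10 and 4.49 in Met-fed hearts, and 4.12, 3.43, 2.02, 3.83 and 3.51 in control hearts. All L-NAME arrays lay above all others, and the L-NAME values were close together, at a mean signal below the median of all probe sets. Its change was 1.5 ± 0.34 (limma, adjusted p = 0.00164). Both passed with array median centring, at 1.34 and 1.08 (adjusted p = 0.00645 and 0.0134). The dim probe set 1369217_at had a difference of -0.28 ± 0.86, with 1 L-NAME array at 4.66 and another at -1.70.

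Egr1 (chr18:26737078-26740877) encodes a zinc finger activator of growth factor and vascular genes. It read 10.65, 9.51, 9.49 and 9.99 in L-NAME hearts, 9.49, 9.98, 9.16 and 9.29 in Met-fed hearts, and 9.05, 8.85, 9.27, 9.10 and 9.69 in control hearts. Control replicate 5 lay above L-NAME replicates 2 and 3, and the groups overlapped. The change was 0.71 ± 0.22 (limma, adjusted p = 0.0156), and it did not pass without L-NAME replicate 1 (0.47, adjusted p = 0.0674) or with array median centring (0.29, adjusted p = 0.335). Egr2 (chr20:21050149-21055201), a relative best known from myelinating cells, read 7.10, 6.30, 6.21 and 6.96 in L-NAME hearts, against 6.31, 5.45, 6.62, 6.30 and 6.76 in control hearts. The difference of 0.36 ± 0.26 did not pass (limma, adjusted p = 0.295), and with array median centring it was -0.069. Its other probe set, 1398266_a_at, was above the highest bacterial control on 4 of 13 arrays and differed by -0.44 ± 0.77 (adjusted p = 0.678).

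**Figure D2:**
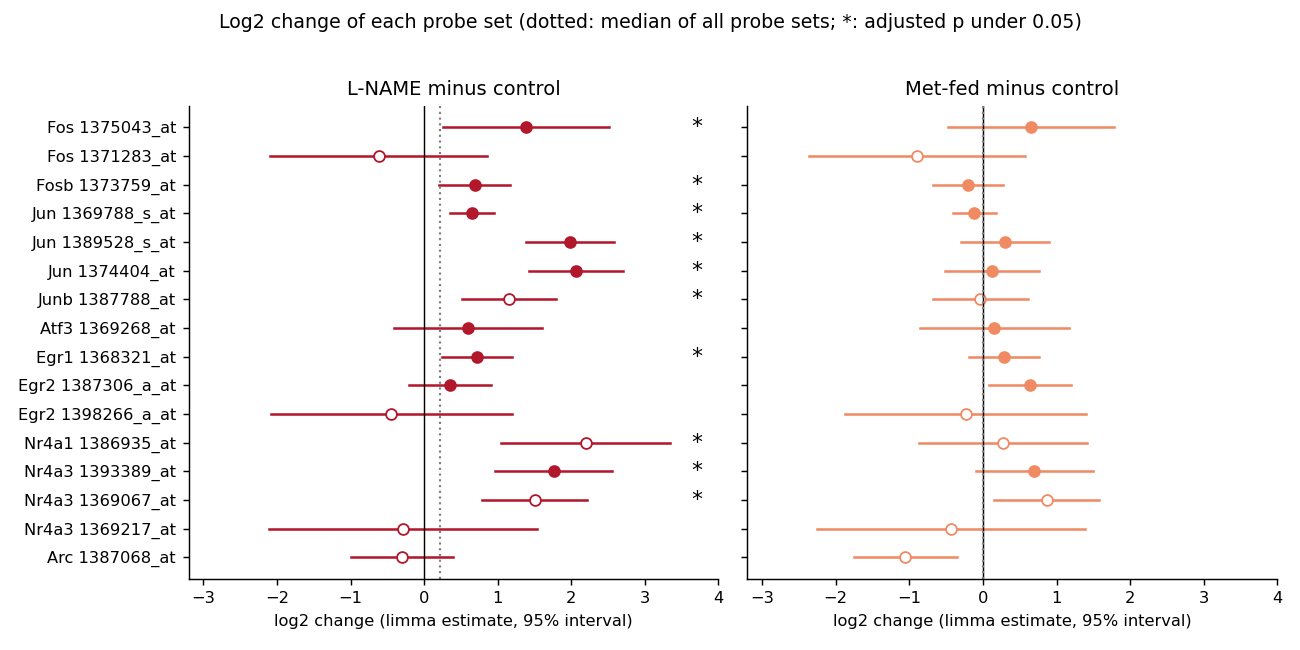
Log2 change (horizontal axis) with its 95% interval for each of the 16 probe sets, L-NAME minus control (left) and Met-fed minus control (right). Open circles are probe sets below the median signal, the dotted line is the median change of all probe sets (0.22 and 0.00392), and asterisks mark an adjusted p under 0.05, which 10 probe sets reached on the left and none on the right.

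Promoter sequences are shown for Nr4a1, which was higher in L-NAME hearts, and for Egr1 and Egr2, which share an arrangement of sites. RefSeq promoters of build GRCr8, 250 bases before to 50 after the start, could be matched for 5 of the 10 genes (Fosb, Junb, Egr1, Egr2 and Nr4a1). Capitals mark CArG boxes and the short CRE core TGACG, read on either strand. Nr4a1 is at chr7:134259888-134260187 (plus strand), Egr1 at chr18:26736828-26737127 (plus strand) and Egr2 at chr20:21054392-21054691 (minus strand), at the starts the RefSeq table uses.
Nr4a1: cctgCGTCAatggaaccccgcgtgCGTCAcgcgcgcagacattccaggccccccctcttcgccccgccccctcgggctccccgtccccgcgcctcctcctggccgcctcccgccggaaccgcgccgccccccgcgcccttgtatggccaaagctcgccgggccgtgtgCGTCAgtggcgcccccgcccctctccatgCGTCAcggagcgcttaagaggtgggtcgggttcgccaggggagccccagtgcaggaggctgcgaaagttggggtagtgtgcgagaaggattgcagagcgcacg
Egr1: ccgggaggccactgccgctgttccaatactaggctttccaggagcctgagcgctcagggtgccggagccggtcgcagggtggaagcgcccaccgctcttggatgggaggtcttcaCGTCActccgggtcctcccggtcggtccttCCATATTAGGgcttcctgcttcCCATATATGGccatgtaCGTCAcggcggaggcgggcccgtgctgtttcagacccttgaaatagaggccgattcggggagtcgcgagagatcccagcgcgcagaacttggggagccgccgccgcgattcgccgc
Egr2: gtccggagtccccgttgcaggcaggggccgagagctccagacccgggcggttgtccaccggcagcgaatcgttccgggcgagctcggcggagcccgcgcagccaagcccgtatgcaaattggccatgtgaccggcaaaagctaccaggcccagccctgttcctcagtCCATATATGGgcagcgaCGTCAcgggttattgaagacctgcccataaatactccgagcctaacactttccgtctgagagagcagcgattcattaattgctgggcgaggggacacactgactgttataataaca
Egr1 holds CArG boxes at -105 to -96 and at -83 to -74 from the start, and Egr2 holds the same letters, CCATATATGG, at -83 to -74. In both genes a short core follows at -66 to -62. The Nr4a1 window holds 4 short cores and no CArG box, that of Junb holds 1 short core, and that of Fosb holds neither. A single window per gene was searched. Those of Nr4a1, Egr2 and Fosb lie within the gene spans given above, so sites near any other start were not read. CArG boxes occur in 1.64% and the short core in 21.2% of 33469 promoters of this length. The full CRE (TGACGTCA, 1.83%), the AP-1 site (TGANTCA, 7.33%), the EGR site (GCGTGGGCG, 0.544%) and the NR4A site (AAAGGTCA, 1.43%) were also searched on both strands, and none of them is in the 5 windows. The short core lies within the full CRE. These matches describe letters in the sequence and were not tested for binding.

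In Met-fed compared with control hearts none of the 16 probe sets passed, as was so for 0% of all 31042 probe sets with limma (smallest adjusted p = 0.130). At an unadjusted p under 0.05 there were 3 of 16 (Arc, Nr4a3 1369067_at and Egr2 1387306_a_at), against 10.7% of all probe sets. Arc (chr7:108444959-108448413) read 2.79, 2.65, 1.94 and 2.94 in Met-fed hearts and 3.36, 4.13, 3.93, 3.75 and 3.02 in control hearts. Each Met-fed value was under each control value, the only one of the 16 probe sets without overlap in this comparison, and 1.55% of all probe sets were lower without overlap. The difference was -1.06 ± 0.33 at a dim signal (limma, unadjusted p = 0.00546, adjusted p = 0.312; exact permutation test, p = 0.0159). With any 1 array left out it was between -1.21 and -0.84. Arc is among the genes the study listed from these samples, so its direction is not independent evidence. Arc gave 3.67, 3.23, 2.83 and 3.61 in L-NAME hearts, inside or below the control range, and the difference from control was -0.30 ± 0.33 (limma, adjusted p = 0.491), or -0.82 with quantile normalization, where it passed (adjusted p = 0.0433). Neuronal markers averaged a log2 signal of 1.06 to 2.48 in L-NAME, 0.849 to 1.88 in Met-fed and 1.44 to 2.12 in control hearts, and 0 of 12 passed in any comparison. The list average was above the highest bacterial control on L-NAME replicate 2 (2.48 against 1.83) and Met-fed replicate 4 (1.88 against 1.28). On every other array it was below that control.

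Nr4a3 1369067_at differed by 0.86 ± 0.34 between Met-fed and control hearts (limma, unadjusted p = 0.0215, adjusted p = 0.390), and by 0.52 to 1.05 with any 1 array left out. The study listed this probe set as lower in Met-fed hearts, opposite to its direction here, and the reason was not tested. Nr4a3 1393389_at differed by 0.70 ± 0.38 (limma, adjusted p = 0.531). For 1369067_at 2 of the 4 Met-fed arrays were above all controls, and for 1393389_at all 4 lay within the control range. The SD of these probe sets was 0.22 and 0.25 in Met-fed and 0.81 and 0.92 in control hearts. For Egr2, Met-fed hearts read 7.13, 7.03, 6.35 and 7.22, and 3 of these 4 were above all controls. The difference was 0.64 ± 0.26 (limma, unadjusted p = 0.0258, adjusted p = 0.401). Fos differed by 0.65 ± 0.53 and Egr1 by 0.28 ± 0.22, with Met-fed replicate 2 the highest Met-fed array for both. The 95% interval of the Met-fed difference was -0.41 to 0.17 for Jun 1369788_s_at, -0.29 to 0.90 for Jun 1389528_s_at, -0.68 to 0.61 for Junb and -0.68 to 0.28 for Fosb, so changes inside these bounds could not be told from 0.

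Between L-NAME and Met-fed hearts, 7 of the 16 probe sets passed, all higher in L-NAME, against 40.3% of all probe sets (25.4% higher). They came from Jun (all 3), Junb, Nr4a1, Fosb and Nr4a3. Jun 1374404_at differed by 1.94 ± 0.32, Nr4a1 by 1.92 ± 0.57, Junb by 1.19 ± 0.32, Nr4a3 1393389_at by 1.06 ± 0.40 and Fosb by 0.89 ± 0.24 (limma, adjusted p = 0.00014 to 0.0415). The groups did not overlap in 8 of the 16, all higher in L-NAME, while 25.6% of all probe sets were higher without overlap. With array median centring 5 passed, all higher, from Jun, Junb and Nr4a1, against 39.2% of all probe sets in either direction. Fos differed by 0.73 ± 0.56 and Egr1 by 0.43 ± 0.24, and neither passed. This comparison and the one with control share the L-NAME arrays.

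With all arrays, many of the genes also varied together within groups. For each gene the brightest probe set was used, with the group mean taken off each array. Of 45 pairs of genes, 39 had a Pearson's r above 0, with a median of 0.42 and a range of -0.20 to 0.92. Pairs of other genes were not read in this way, so what is particular to these genes was not tested. By a permutation test within groups, adjusted over 45 pairs, 6 passed by r and 2 by Spearman's rho. Jun and Egr1 had r = 0.92 (permutation p = 0.00015, adjusted p = 0.00675) and rho = 0.90 (permutation p = 0.00045, adjusted p = 0.0203), and r = 0.89 without L-NAME replicates 1 and 2, the arrays farthest from the median of Jun. Fos and Nr4a1 had r = 0.88 (permutation p = 0.00281, adjusted p = 0.0324) and rho = 0.70 (permutation p = 0.0174, adjusted p = 0.0869), and r = 0.60 without the 2 farthest arrays. Fosb and Egr2 had r = 0.82 (permutation p = 0.00147, adjusted p = 0.0324) and rho = 0.76 (permutation p = 0.00905, adjusted p = 0.0754), and r = 0.83 without the 2 farthest. The other 3 pairs were Fos with Egr1 (r = 0.85), Jun with Egr2 (r = 0.72) and Atf3 with Egr2 (r = 0.70), with permutation p adjusted to 0.0324, 0.0422 and 0.0324 for r and to 0.0754, 0.0614 and 0.0869 for rho. Fosb and Egr1 passed by rho (0.82, permutation test, adjusted p = 0.0434) and not by r (0.80, adjusted p = 0.0516). Egr1 and Egr2 had r = 0.75 (permutation p = 0.00918, adjusted p = 0.0516) and rho = 0.81 (permutation p = 0.00546, adjusted p = 0.0614), and r = 0.84 without the 2 farthest. Nr4a3 stood aside, with r from -0.20 to 0.20 to the other 9 genes. The 9 pairs with Arc had a median r of 0.20, and none passed.

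**Figure D3:**
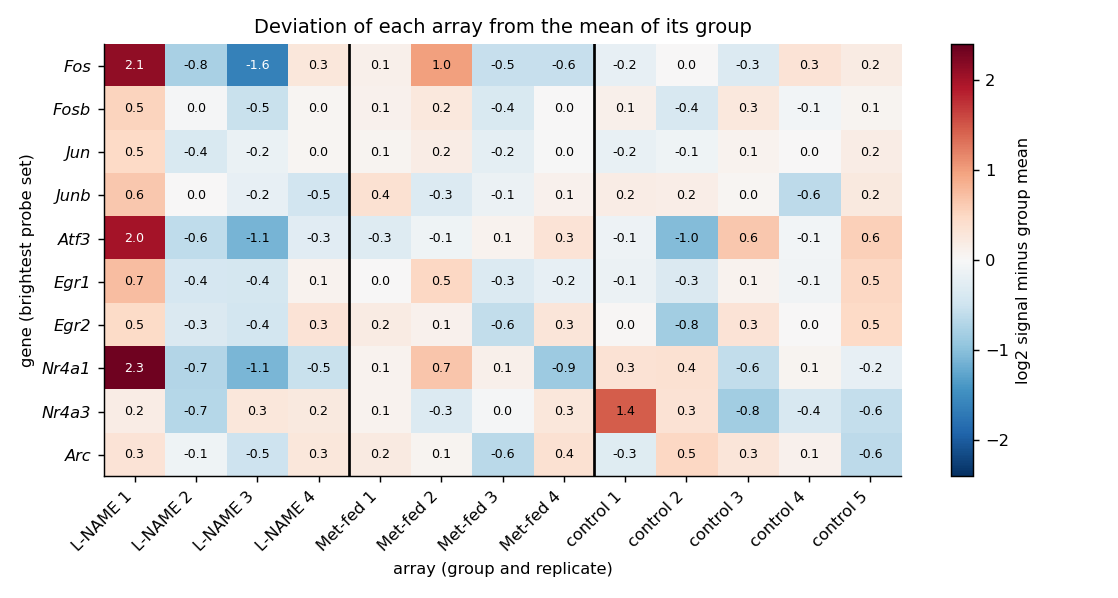
Log2 signal minus the group mean for 10 genes (rows) on 13 arrays (columns, L-NAME, Met-fed, control). L-NAME replicate 1 is above its group mean for all 10 genes, by more than 2 log2 units for Fos and Nr4a1, while L-NAME replicates 2 and 3 are each above it for 1 gene. Shares over all probe sets were not computed.

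L-NAME replicate 1 carried much of this pattern. It was above its group mean for 10 of 10 genes, and L-NAME replicates 2, 3 and 4 for 1, 1 and 7. The share of all probe sets above the group mean on these arrays was not computed. L-NAME replicate 1 had a beta-actin ratio of 2.32 and a mean spike-in log2 signal of 9.80, both the lowest of the 13 arrays. Without it, 25 of 45 pairs had r above 0, the median r was 0.11 and none passed. Jun and Egr1 kept r = 0.85, Fosb and Egr2 r = 0.80, Atf3 and Egr2 r = 0.77, Egr1 and Egr2 r = 0.73, and Fos and Egr1 r = 0.71, whereas Atf3 and Nr4a1 moved to r = -0.47. Within the 9 Met-fed and control arrays, with group means kept, the median r was 0.0669 and none passed (smallest adjusted p = 0.330). Removing any other single L-NAME array left 1 pair, and removing control replicate 2 or 3 or Met-fed replicate 1 or 3 left 3.

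**Figure D4:**
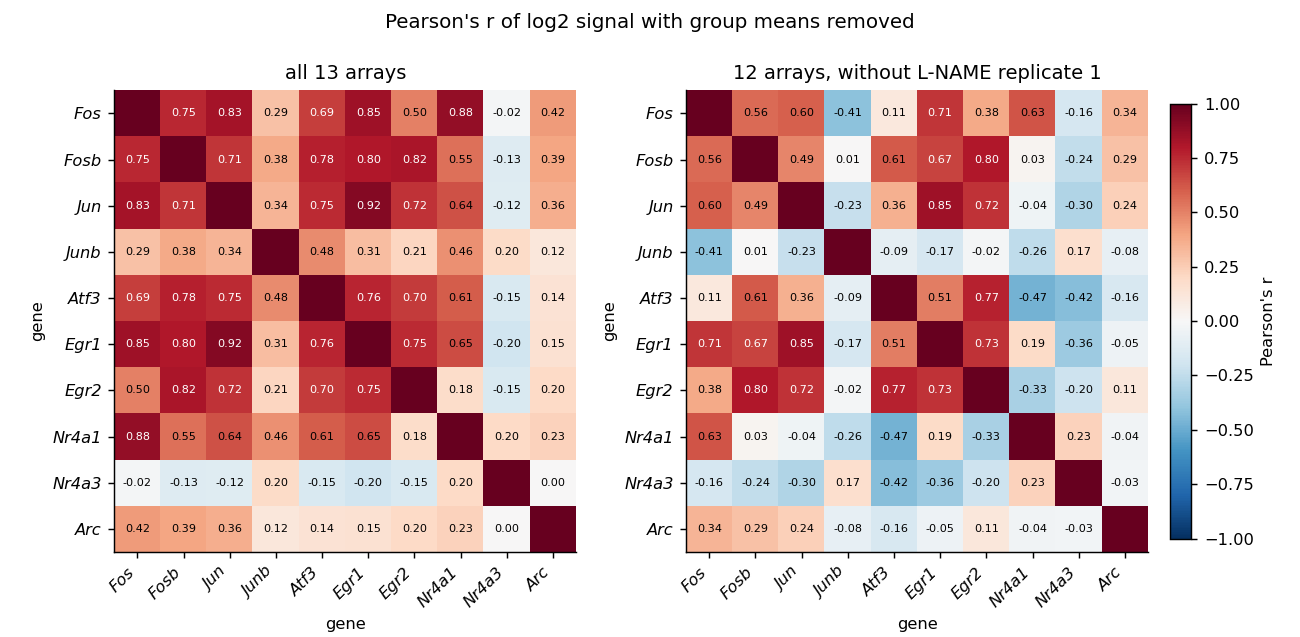
Pearson's r between the 10 genes over log2 signals with group means removed, for all 13 arrays (left) and for 12 arrays without L-NAME replicate 1 (right). The block of Fos, Fosb, Jun, Atf3, Egr1 and Egr2 is positive on both sides, while the positive values of Junb and Nr4a1 with most of these genes are near or below 0 on the right, apart from Fos with Nr4a1 (0.63).

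The genes most like these in pattern were sought among 11927 other probe sets of at least median signal, by r with the mean profile of 7 members of at least median signal (Fos, Fosb, Jun, Atf3, Egr1, Egr2 and Nr4a3) over 13 arrays with group means removed. The median r of all was 0.0282 and the 95th percentile 0.503. The highest were Spry4, an inhibitor of receptor tyrosine kinase signaling (r = 0.91, and 0.85 without L-NAME replicate 1), the immediate early gene Ier2 (0.91 and 0.87), the autophagy gene Atg7 (0.91 and 0.78) and Nmrk2, a kinase of NAD synthesis (0.89 and 0.80). C6h14orf180 (0.87), the endothelial junction gene Cldn5 (0.87), Tmem258 (0.86) and Ddah2 (0.85), a relative of the enzyme that degrades endogenous NO synthase inhibitors, followed. Since these were picked as the highest of many, each by its probe set with the highest r, they are a description. Ier2 was also the most like Fos alone (r = 0.92), followed by Tmem258, Otud1, Mgmt and Hspa1a. The heat shock gene Hspa1a read 8.52 on L-NAME replicate 1 and 5.68 to 5.92 on the other L-NAME arrays, and its r to Fos was 0.83 with that array and 0.45 without it.

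Genes around this response were read against all probe sets, of which 28.7% were higher and 17% lower in L-NAME than in control hearts, or 16% and 29.7% with array median centring. Of 37 other immediate early and primary response genes, 19 were higher and 6 lower than in control (limma, adjusted p under 0.05), with a median log2 change of 0.62 against 0.22 over all probe sets, or 11 higher and 9 lower with array median centring. Gadd45a, a growth arrest and DNA damage gene, averaged 8.91 ± 0.16 in L-NAME and 6.73 ± 0.17 in control hearts (SD, n = 4 and 5), a change of 2.18 ± 0.14. The polo-like kinase Plk2 (2.00 ± 0.24) and the scaffold gene Homer1 (1.13 ± 0.12) were also higher. Without L-NAME replicate 1, 14 of the 37 were higher and 7 lower, against 26% and 16% of all probe sets. Of 13 family members and dimer partners, 4 were higher and 2 lower (median 0.33), or 2 and 3 with array median centring, and these 6 of 13 were close to the 45.7% of all probe sets that passed. Jund, a Jun protein with steady expression, fell by 0.54, and the small Maf gene Maff fell by 1.05. The stress response factor Atf4 was higher by 0.68 ± 0.13, or by 0.25 with array median centring, where it did not pass (adjusted p = 0.104), and Nr4a2, the remaining Nr4a receptor, was higher by 1.5 ± 0.34.

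Of 25 upstream kinases and transcription factors, 8 were higher and 9 lower (median 0.12), or 4 and 12 with array median centring, where 45.7% of all probe sets passed in each fit. The ERK kinase Map2k2 fell by 0.96 and the CREB coactivator Crtc3 by 1.67, while Elk4, a partner of serum response factor, was higher by 0.99. Of 17 feedback inhibitors, 5 were higher and 3 lower (median 0.23), or 2 and 6 with array median centring, and these 8 of 17 were close to the same 45.7%. The ERK phosphatase Dusp6 averaged 9.15 ± 0.0415 in L-NAME and 10.2 ± 0.131 in control hearts (SD), a fall without overlap, and the RNA-binding gene Zfp36l1 fell by 0.51, while the calcineurin regulator Rcan1 was higher by 1.28. Of 17 AP-1 and EGR targets in heart and vessel, 7 were higher and 1 lower (median 0.33), or 2 and 3 with array median centring, also close to 45.7% before centring. The chemokine gene Ccl2 was higher by 1.28 and the adhesion gene Icam1 by 1.09, and Tgfb1 fell by 1.75. In Met-fed compared with control hearts no gene of the 5 lists passed. Ccl2 had the smallest p of these (1.06 ± 0.21, limma, adjusted p = 0.151), with averages of 8.97 ± 0.0747 in Met-fed and 7.91 ± 0.443 in control hearts (SD).

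**Figure D5:**
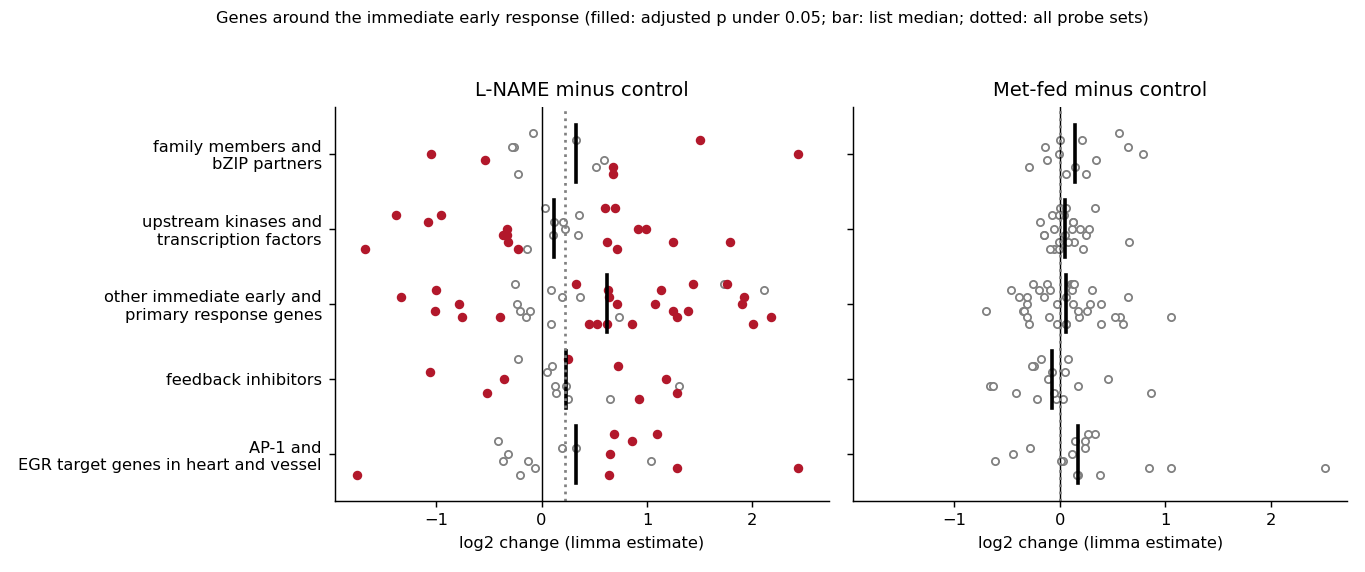
Log2 change (horizontal axis) of each measured gene in 5 lists (rows), L-NAME minus control (left) and Met-fed minus control (right). Filled points have an adjusted p under 0.05, bars are list medians and the dotted line is the median of all probe sets. On the left, 19 of 37 other immediate early genes are filled above 0 and 6 below it, and on the right none is filled.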

How the data were processed

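Left ventricle RNA was hybridized to 4 L-NAME, 4 Met-fed and 5 control Affymetrix rat genome arrays. The deposited values are linear signal intensity per probe set, computed by the authors with MAS5 (version not given in the sources used here). All arrays shared a trimmed mean of 150 (2% removed per end). The 31099 probe sets include 57 controls of the manufacturer, which were dropped, and log2 signals of the other 31042, without offset or filter, were fitted with limma 3.58.1 in R 4.3.3 over all 13 arrays, with 1 coefficient per group, a variance trend and Benjamini-Hochberg adjustment at 0.05. Exact permutation tests were 2-sided, over all splits of both groups. For pairs of genes, 100000 permutations within groups were drawn. Groups came from the sample labels. The study describes 4 arrays for each of Met-fed and control without naming the controls, and here all 5 entered. Its t-test was run as an alternative without the variance stabilization, whose settings are not given. Replicate numbers were not used to pair arrays. The scripts were tested on simulated data.

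The platform annotation gave 1 symbol to 20826 probe sets, several to 436 and none to 9780. The genes and the gene lists were chosen with earlier results of these data known. Named were all probe sets of the 10 genes, of each list the genes with the smallest p against control (the first 3 for L-NAME and the first for Met-fed where given, plus Nr4a2 as the fourth of its list), the 8 genes most like the mean profile and the 5 most like Fos. Genes of the lists were read by their brightest probe set. The genes most like the mean profile or Fos were read by their probe set with the highest r, among those of at least median signal. Marker genes followed fixed lists. As alternatives, arrays were quantile normalized or centred on their medians, 50 or 16 was added before log2, probe sets under a signal of 29.2 were dropped, only the compared groups were fitted, and the variance trend was left out. Others were the methods' t-test in 2 forms, a replicate block, spike-in and beta-actin covariates, and each array left out in turn. The same alternatives for the lists were added after the data were seen. The number of arrays limits the precision.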

Additional observations from a re-analysis of the deposited data

Results flagged for a closer look

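In 48 groups of arrays (16 probe sets in 3 groups), 3 values lay far from the rest of their group by Dixon's criterion, which chance meets in about 1 group in 20. Nr4a1 on L-NAME replicate 1 had a log2 signal of 8.002, against 4.58 to 5.15 on the other L-NAME arrays. Nr4a3 1393389_at on L-NAME replicate 2 read 5.26, against 6.14 to 6.22 on the other L-NAME arrays. Junb on control replicate 4 read 2.42, against 3.09 to 3.28 on the other controls.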

How the results depend on the processing

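Against the 10 probe sets called in L-NAME compared with control hearts, array median centring gave 5 and the t-test for unequal variances 5. Of all probe sets 45.7% and 40.7% passed in these fits. The spike-in and beta-actin covariates gave 0 each, with 13.3% and 3.29% of all probe sets. Quantile normalization gave 8, among them Arc as lower, with 43.9% of all probe sets. The filter at the median signal gave 7 of the 9 probe sets it kept, with 67% of all that it kept. The other alternatives gave 8 to 10, with 42.4% to 47.9% of all. Leaving out 1 array gave 7 (without L-NAME replicate 1) to 10, with 41.6% to 46.2% of all probe sets. Against the 7 called in L-NAME compared with Met-fed hearts, quantile normalization gave 3, with 36.7% of all probe sets. The spike-in covariate gave 3 (24.2% of all), the t-test for unequal variances 4 (30%) and the beta-actin covariate 0 (0.767%). Leaving out 1 array gave 6 to 8, with 35.4% to 40.7% of all. In Met-fed compared with control hearts every alternative gave 0. The 6 pairs of genes became 11 with quantile normalization, 10 with array median centring and 0 in the 9 Met-fed and control arrays, and 0 to 8 with 1 array left out: 0 without L-NAME replicate 1, 1 without L-NAME replicate 2, 3 or 4, and 3 without control replicate 2 or 3 or Met-fed replicate 1 or 3. The replicate block gave 10, 0 and 7, as without it. Arrays of the same number had correlations of -0.21 to 0.24 over 12 pairs, and 2 were over 0.1. The labels do not state what the numbers stand for, so these values cannot show whether same-numbered arrays shared a step. Over all alternatives the adjusted p against control in L-NAME hearts ranged between 1.3e-05 and 0.992 for Jun 1389528_s_at, 0.00173 and 0.991 for Nr4a1, 0.000129 and 0.160 for Nr4a3 1369067_at, 0.00152 and 0.859 for Junb, 0.00463 and 0.682 for Fos 1375043_at, 0.00591 and 0.940 for Fosb, 0.00652 and 0.549 for Egr1 and 0.0433 and 0.797 for Arc. Causes were not tested.

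Some single changes turned direction. In L-NAME against control, array median centring gave Egr2 1387306_a_at -0.069, and offsets of 50 and 16 gave Nr4a3 1369217_at 0.089 and 0.18. The spike-in covariate gave Atf3 -0.95, Egr2 1387306_a_at -0.56 and Egr2 1398266_a_at 1.21. The beta-actin covariate gave Egr1 -1.22, Atf3 -1.54, Jun 1369788_s_at -0.48, Jun 1389528_s_at -0.021, Fos 1371283_at 1.65, Fos 1375043_at -1.81, Fosb -0.41 and Egr2 1387306_a_at -1.21. In Met-fed against control, Junb was 0.024 with the replicate block and 0.0069 with the beta-actin covariate, and the spike-in covariate gave Atf3 -0.51, Jun 1374404_at -0.41, Jun 1389528_s_at -0.10 and Egr2 1398266_a_at 0.48. In L-NAME against Met-fed, Nr4a3 1369217_at was -0.34, -0.22, -0.26 and -0.71 with quantile normalization, array median centring, spike-in and beta-actin covariates, and Fos 1371283_at was -0.43 and -0.088 with the first 2 of these. The spike-in covariate gave Atf3 -0.43 and Egr2 1398266_a_at 0.73, and the beta-actin covariate gave Atf3 -1.82, Egr1 -1.62, Jun 1369788_s_at -0.43, Jun 1389528_s_at -0.44, Fosb -0.27, Fos 1375043_at -2.65 and Nr4a1 -0.34. With 1 array left out, the changes that turned ranged as follows. In L-NAME against control, Atf3 ranged between -0.069 and 0.97 and Nr4a3 1369217_at between -1.23 and 0.89. In Met-fed against control, Junb ranged between -0.19 and 0.073, Atf3 between -0.10 and 0.32, Egr2 1398266_a_at between -0.71 and 0.42 and Jun 1374404_at between -0.087 and 0.26. In L-NAME against Met-fed, Nr4a3 1369217_at ranged between -0.80 and 1.32, Egr2 1398266_a_at between -0.86 and 0.21 and Atf3 between -0.23 and 0.81. Over the member probe sets and the named list genes together, 1648 single changes kept direction and side of the threshold. Another 92 no longer passed, 7 newly passed and 52 turned. The list genes were named for their small p (Nr4a2 as the fourth of its list), so these counts do not describe the members alone. The dim probe sets of Fos, Egr2 and Nr4a3 (above the highest bacterial control on 1, 4 and 9 of 13 arrays) limit what can be read from them.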
